A study of Mus musculus with 11 samples.

Results

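The 46 genes described here encode the machinery that carries an insulin granule to the plasma membrane, docks it there and fuses it. They were taken from a fixed list of SNARE, Munc18, synaptotagmin, complexin, Rab, Rab effector and priming genes, and all 46 were found among the 34728 gene entries of the expression table. The genes fell into 8 groups by role. The rule that chose them uses no expression value, but the members were chosen with earlier results of these data known.

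RNA-seq was performed on GFP+ islet cells of 8-week-old male mice on a C57BL/6 x 129SV background, collected by FACS. The study asked what loss of Raptor, the defining subunit of the kinase complex mTORC1, does to β-cells with and without high blood glucose. There were 3 libraries from WT mice, which carried RIP-Cre, Rosa26GFP and intact Raptor, 4 from diabetic βRapKOGFP mice, in which the same Cre deleted Raptor and which received no insulin, and 4 from euglycemic βRapKOGFP mice, which had carried an insulin pellet for 4 weeks. All 3 groups therefore shared RIP-Cre and the Rosa26 GFP reporter, and differed in the Raptor alleles and the insulin. RIP-Cre is driven by the rat insulin promoter, so GFP marks a cell that has used that promoter at any time, including a cell that no longer makes insulin. The labels do not say whether a library came from a single mouse or from pooled mice, and the p-values below measure the spread between these libraries.

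An insulin granule is fused to the plasma membrane by SNARE proteins, a pair of families on the target membrane (syntaxins and SNAP-25 relatives) and VAMPs on the granule, which zip into a tight bundle. Rab GTPases of the Rab3 and Rab27 families on the granule recruit effectors that tether and dock it, Munc13 and CAPS proteins prime it, and synaptotagmins sense the rise in calcium that follows glucose metabolism. β-cells use many of the same proteins as neurons, together with members particular to secretory cells such as granuphilin, the product of Sytl4.

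Every value below is in FPKM, fragments per kilobase of transcript scaled to the mapped fragments, a level per length that can be set beside that of another gene. Differences are on the log2(FPKM + 1) scale, which understates the change of genes with low values. They were tested with limma over the 11251 genes that reached an FPKM of 1 in 3 or more of the 11 libraries, and a gene was called at a Benjamini-Hochberg adjusted p of at most 0.05 over all of these and a change of at least 1.5-fold. Of the 46 genes, 40 passed the filter and were tested. The inferred depth was 9497760 to 16653104 fragments per library, at which 1 fragment on 1 kilobase of transcript is worth 0.0600 to 0.105 FPKM.

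Rptor, the gene targeted by the Cre, had an FPKM of 0.948, 1.36 and 1.79 in the WT libraries, 0.485 to 0.937 in the diabetic and 0.423 to 0.623 in the euglycemic libraries. All 8 βRapKOGFP libraries lay below all 3 WT libraries, narrowly in diabetic replicate 1. A two-sided exact permutation test gave p = 0.0571 for diabetic and p = 0.0286 for euglycemic against WT, the latter the smallest p that 4 libraries against 3 can give. The insulin genes were high in all groups, with a mean Ins1 FPKM of 90249 in WT cells, 63845 in diabetic cells and 57740 in euglycemic cells. Several other β-cell markers had lower means in the mutant cells, the glucose transporter gene Slc2a2 at a mean of 17.5 and 21.7 in diabetic and euglycemic cells against 75.6 in WT, Pdx1 at 49.6 and 58.6 against 90.7 and Nkx6-1 at 37.3 and 39.6 against 52.1. Mafa was at 36.4 and 16.8 against 42.5, with WT replicate 1 at 11.9, and Ucn3 at 363 and 549 against 642. Ins2 was at 55427 and 41667 against 49815, and Iapp at 36936 and 48708 against 34786. Summed markers of other islet cells were higher in every βRapKOGFP library than in every WT library, as were Gcg, Sst, Rbp4, Ppy and Pyy singly, while Irx2, Ttr and Hhex overlapped. The summed FPKM of 5 α-cell markers was 1047 to 2438 in WT and 3935 to 23767 in βRapKOGFP libraries, that of 3 δ-cell markers 1176 to 2514 and 4864 to 13953, and that of 2 PP-cell markers 513 to 1107 and 3674 to 14238. The 7 acinar markers summed to between 3.46 and 31.6 in WT, to between 14.2 and 15.5 in diabetic replicate 4 and euglycemic replicates 2 and 3, and to between 717 and 3330 in the other 5 βRapKOGFP libraries. Of the acinar markers, Cela1 was at 12.5 to 13.3 in those 3 libraries and at most 4.75 in WT. The 4 duct markers summed to between 58.1 and 71.6 in WT, 57.3 and 86.1 in diabetic and 95.8 and 131 in euglycemic libraries, a sum made up mostly of Krt7, which was 51.4 to 67.8, 40.3 to 55.5 and 62.8 to 89.3. The other 3 (Krt19, Sox9 and Spp1) were higher in all 8 mutant libraries than in WT, Krt19 at 2.54 to 16.5 against at most 0.853, and overlapped between the mutant groups. The 5 endothelial markers summed to between 8.12 and 48.9 and the 4 stromal markers to between 0.183 and 8.18 in diabetic libraries, all above the WT and euglycemic libraries, which reached at most 4.35 and 0.113. Singly, Pecam1, Cdh5, Plvap and Col3a1 stood apart in this way and the other 5 overlapped. The 4 immune markers summed to between 8.20 and 21.6 in WT, 0.552 and 63.2 in diabetic and 0.595 and 4.60 in euglycemic libraries. The WT sums were mostly Cd79a, at 8.20 to 20.1 against at most 1.10 in the mutant libraries, that of diabetic replicate 1 was mostly Lyz2 (59.4), and Ptprc was at 0 in 10 of the 11 libraries. The 4 neural and Schwann markers ranged from 0.465 to 2.43 with all groups overlapping. The part of these cell types in the differences between groups given below was not tested, apart from the fit with an acinar covariate. Among defining markers, the WT libraries had Cdh5 of endothelial cells at 0, and Sox10 of Schwann cells was at 0 in 10 of the 11 libraries. WT replicate 1 and euglycemic replicate 4 stood farthest from the other libraries, with a mean absolute deviation from the gene medians of 0.347 and 0.495 on the log2 scale against 0.238 to 0.323 in the others.

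As a list, the exocytosis genes had medians close to those of all genes in both mutant groups. Their summed FPKM was 1175 to 1303 in WT, 932 to 1243 in diabetic cells and 882 to 1284 in euglycemic cells, and the ranges overlapped. The median log2 difference of the 40 tested genes was -0.01 for diabetic against WT, beside 0.01 over all genes tested, and -0.08 for euglycemic against WT, beside -0.01. Between diabetic and WT 2 of the 40 were called, Rab37 and Sytl4, both lower in the diabetic cells. Over all genes tested 0.969% were called, and 0.498% in the lower direction. A further 5 had an unadjusted p under 0.05 (Cplx2, Syt5, Sytl5, Unc13a and Vamp3), which makes 17.5% of the list beside 11.9% of all genes, and the 2 groups did not overlap for 6 genes, 15% beside 13.5%. Between euglycemic and WT 0 of the 40 were called by limma, with 0.551% of all genes called, and 7 had an unadjusted p under 0.05, or 17.5% of the list beside 13.9% of all genes. The groups did not overlap for 4 genes (Cadps, Rab37, Sytl4 and Vamp3, all lower), 10% beside 10.9%. With both mutant groups set together against WT, Rab37 and Sytl4 were called again, beside 1.05% of all genes and 0.516% in the lower direction, and were also the 2 genes, 5% of the list, whose 8 mutant libraries did not overlap WT, beside 3.68% of all genes. The comparisons with WT share the 3 WT libraries.

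**Figure D1:**
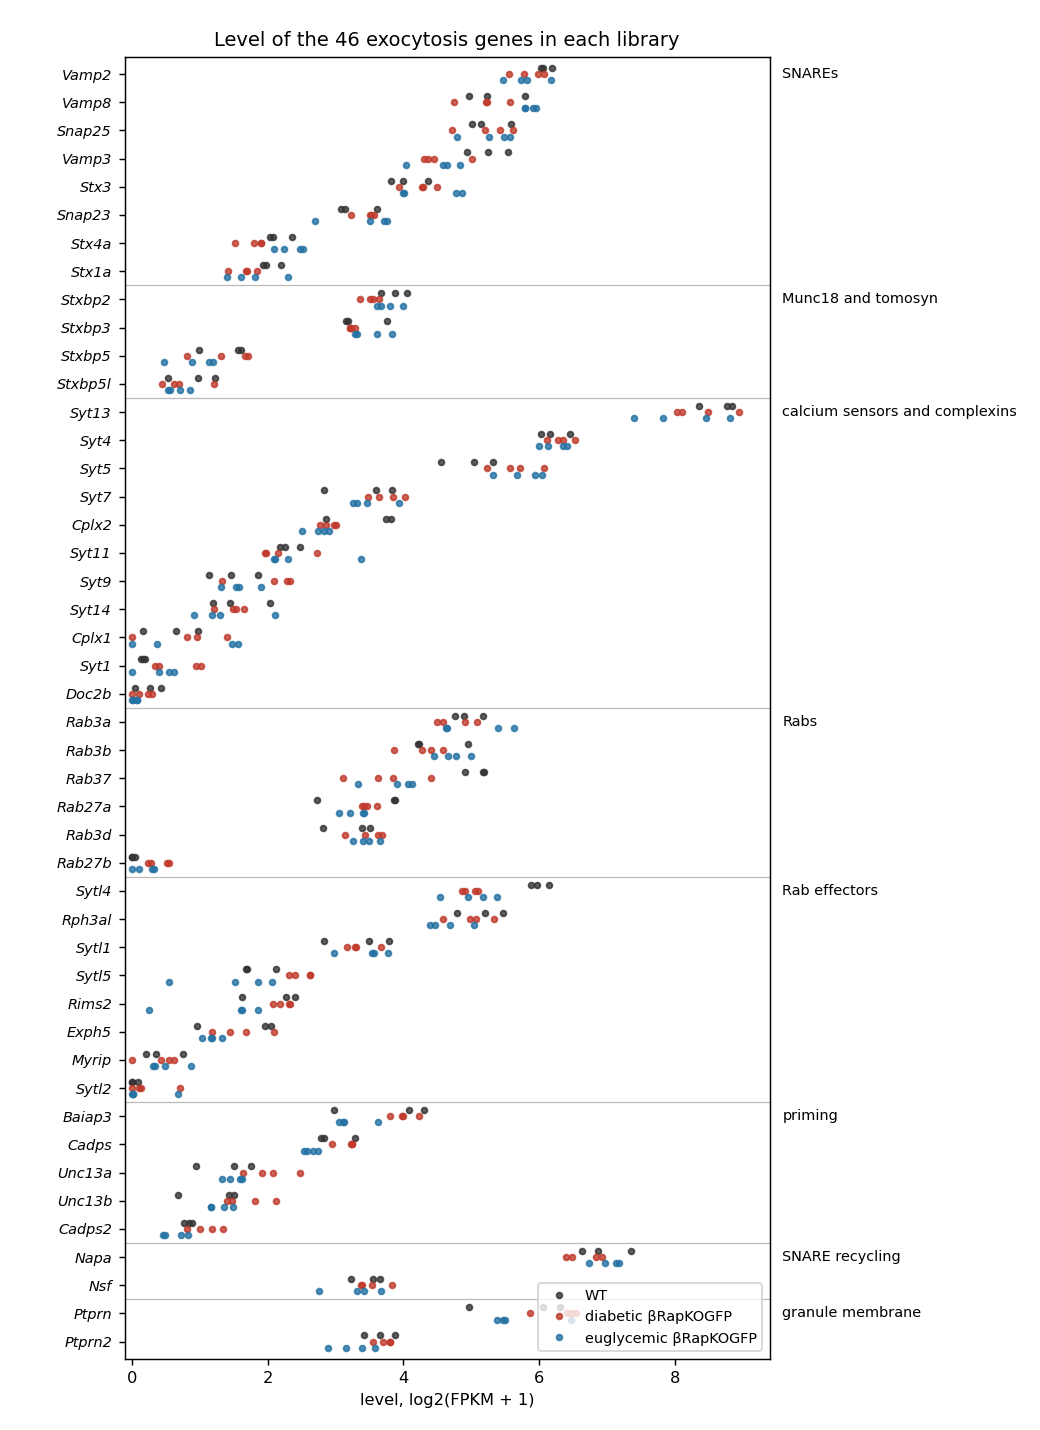
Level of each of the 46 genes, as log2(FPKM + 1), in the 3 WT (black), 4 diabetic βRapKOGFP (red) and 4 euglycemic βRapKOGFP (blue) libraries, ordered by role and by mean level within a role. Levels run from Syt13 at the top to genes near 0 such as Rab27b and Sytl2, and the colours overlap for most genes but stand apart for Sytl4 and Rab37.

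For 29 of the 40 tested genes the 95% interval of the difference between diabetic and WT lay within 2-fold either way, or 72.5% beside 74.7% of all genes. For euglycemic against WT this held for 27 of the 40, or 67.5% beside 70.9%. Among these were Snap25, Vamp2, Stx1a, Rab3a, Rab27a, Syt4 and Syt7 in both comparisons. For the remaining genes the interval reached past a 2-fold change in at least 1 direction.

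**Figure D2:**
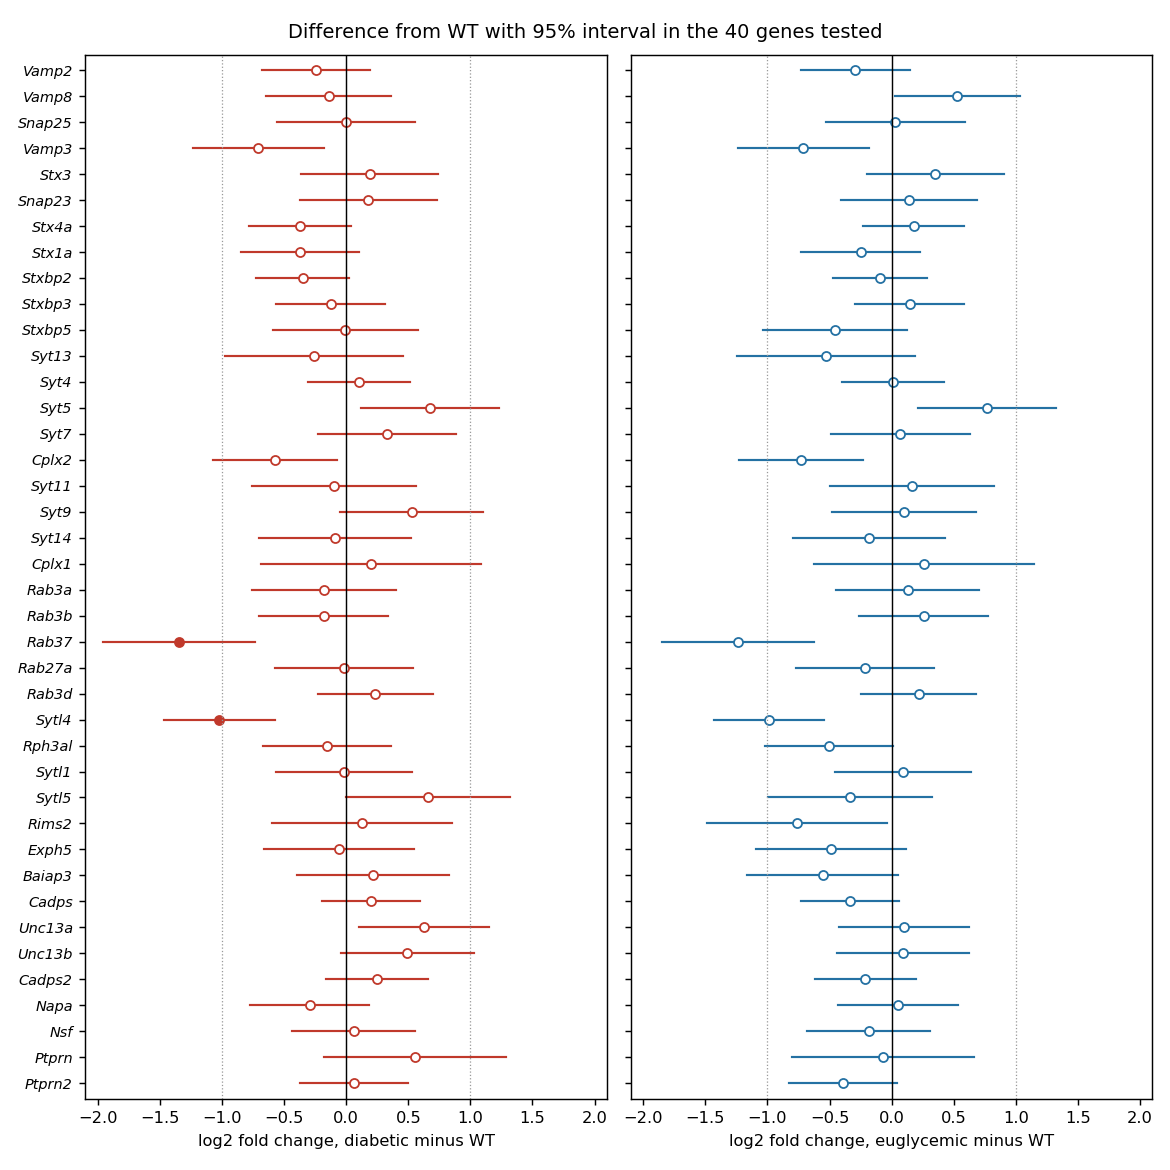
Log2 fold change against WT of the 40 genes tested, for diabetic (left, red) and euglycemic (right, blue) βRapKOGFP libraries, with the 95% interval from limma as a line, filled points for genes called and dotted lines at a 2-fold change. Rab37 and Sytl4 are the filled points at left and hold the lowest values in both panels.

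Sytl4 encodes granuphilin, a Rab27 effector on the insulin granule that docks it at the plasma membrane through syntaxin. The gene spans 133936385 to 133981812 on chromosome X of GRCm38 (mm10). Its FPKM was 58.1, 69.6 and 61.5 in WT, 33.3, 32.05, 28.0 and 28.9 in diabetic, and 40.4, 22.3, 35.1 and 30.0 in euglycemic libraries. Every βRapKOGFP library was below every WT library, and the diabetic and euglycemic libraries overlapped. The WT mean was 63.1 ± 5.90 (SD, n = 3), the diabetic mean 30.5 ± 2.51 and the euglycemic mean 31.95 ± 7.73 (SD, n = 4 each). The log2 difference from WT was -1.02 with an SE of 0.21 in diabetic (limma, adjusted p = 0.0376) and -0.99 with an SE of 0.21 in euglycemic libraries (adjusted p = 0.0583, not called). In bulk RNA, fewer Sytl4-expressing cells and less Sytl4 RNA per cell cannot be told apart. The part of the summed α, δ and PP markers, which were higher in the same 8 libraries, and of the acinar markers, which were higher in 5 of them, was not tested, except that with an acinar marker score as a covariate the difference in diabetic libraries was -1.15 and the call was lost (adjusted p = 0.0837). Sytl4 was at 28.9, 22.3 and 35.1 in diabetic replicate 4 and euglycemic replicates 2 and 3. Their acinar sums were 14.2 to 15.5, against 3.46, 4.47 and 31.6 in WT, and the part of these sums was not tested.

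Rab37 encodes a Rab GTPase found on secretory granules and linked to insulin granule docking. The gene spans 115091431 to 115162236 on chromosome 11. Its FPKM was 29.0, 35.2 and 35.3 in WT, 11.3, 7.61, 13.4 and 20.1 in diabetic, and 15.8, 9.04, 13.9 and 16.4 in euglycemic libraries. The WT libraries stood above all 8 others, with a gap between 20.1 and 29.0. The WT mean was 33.2 ± 3.58 (SD, n = 3), the diabetic mean 13.1 ± 5.24 and the euglycemic mean 13.8 ± 3.33 (SD, n = 4 each). The difference from WT on the log2 scale was -1.35 with an SE of 0.28 in diabetic (adjusted p = 0.0449) and -1.24 with an SE of 0.28 in euglycemic libraries (adjusted p = 0.0898, not called). With the acinar score as a covariate the difference in diabetic libraries was -1.31 and not called (adjusted p = 0.164). Rab37 was at 20.1, 9.04 and 13.9 in diabetic replicate 4 and euglycemic replicates 2 and 3. Their acinar sums were 14.2 to 15.5, against 3.46, 4.47 and 31.6 in WT, and the part of these sums was not tested. The part in both differences of the β-cell markers, of which Slc2a2 was also below WT in all 8 mutant libraries, was not tested.

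The sizes of both differences changed little when a library was left out, but the calls were marginal. In diabetic against WT, leaving out each library in turn gave -1.56 to -1.13 for Rab37 and -1.08 to -0.95 for Sytl4, and each call remained in 3 of 11 fits, for Rab37 without diabetic replicate 4 or euglycemic replicates 2 or 4 and for Sytl4 without euglycemic replicates 1, 2 or 4. Adjusted p reached 0.171 for Rab37 and 0.164 for Sytl4 in the others. Over all 27 alternatives described below, the calls held under 14 for Rab37 and 15 for Sytl4. Both were lost with no filter (adjusted p = 0.157 for Rab37 and 0.104 for Sytl4) and in TPM (0.0686 for each). The Sytl4 call was also lost with a replicate block (0.138). With both mutant groups set against WT the differences were -1.29 for Rab37 (adjusted p = 0.0278) and -1.004 for Sytl4 (adjusted p = 0.0202), and the calls remained in 6 and 9 of 11 such fits, ending for both genes without WT replicate 2 or 3 and for Rab37 also without WT replicate 1 or diabetic replicates 1 or 3. Diabetic and euglycemic libraries differed by -0.11 for Rab37 (95% interval -0.68 to 0.46) and by -0.03 for Sytl4 (-0.45 to 0.38), and both intervals lay within 2-fold either way. The sign of these small differences turned with the scaling and with single libraries left out.

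**Figure D3:**
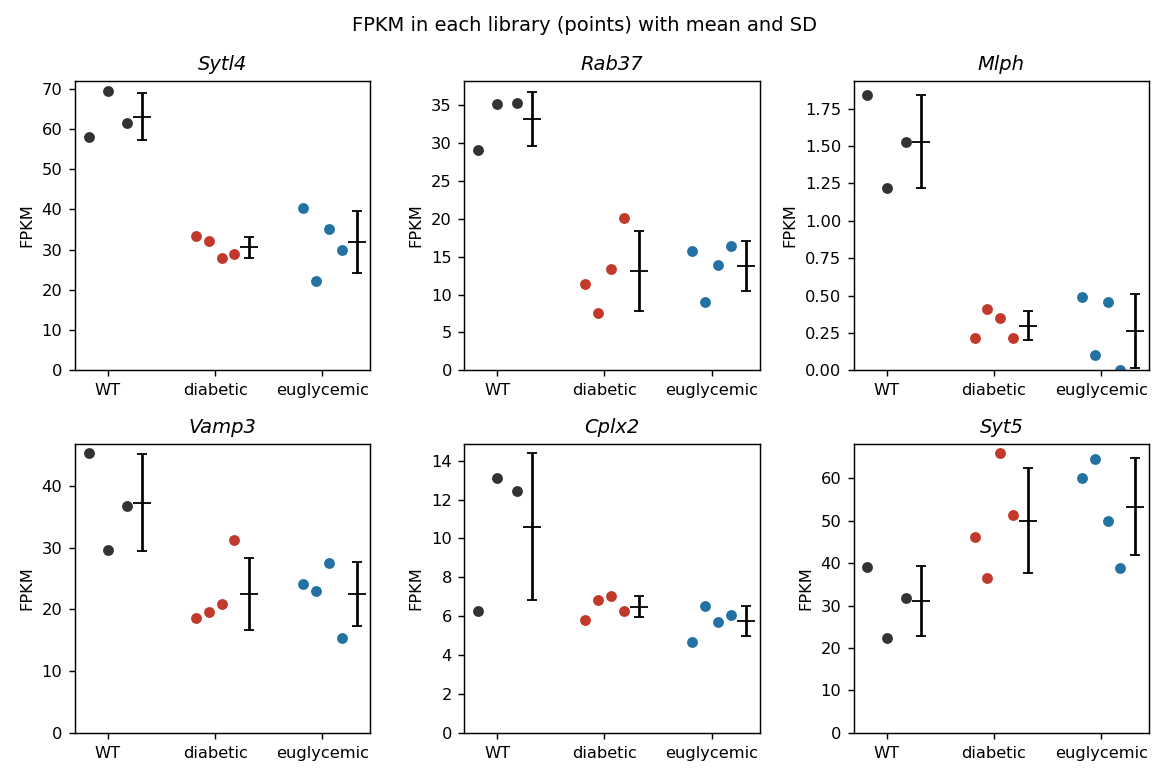
FPKM in each library (points) with the mean and SD of the group (bar), for Sytl4, Rab37, Mlph, Vamp3, Cplx2 and Syt5 in WT, diabetic and euglycemic βRapKOGFP libraries. Sytl4, Rab37 and Mlph stand apart between WT and all other libraries, while Vamp3, Cplx2 and Syt5 overlap between WT and at least 1 other group.

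Among 44 tested genes of a second list of exocytosis genes that are no members, such as exocyst subunits, other VAMPs and Rab regulators, 1 was called. It was called against WT in both diabetic and euglycemic libraries, where 0.969% and 0.551% of all genes were called. Mlph, which encodes the Rab27 effector melanophilin, had an FPKM of 1.84, 1.22 and 1.53 in WT, 0.217, 0.409, 0.350 and 0.215 in diabetic, and 0.490, 0.101, 0.455 and 0 in euglycemic libraries. Its log2 difference from WT was -0.96 in diabetic (adjusted p = 0.0430) and -1.02 in euglycemic libraries (adjusted p = 0.0392). It reached an FPKM of 1 in the 3 WT libraries only, so it could enter the test only because WT was high, and it was not called with no filter (adjusted p = 0.104 in diabetic and 0.112 in euglycemic libraries) or with the acinar covariate (0.165 and 0.108). Without diabetic replicate 1 the adjusted p was 0.118, and in diabetic against WT the call remained in 1 of the 8 fits that left out a library and still tested it, and in euglycemic against WT in 0 of 8. The tested exocyst subunits were not called.

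The promoters of Sytl4 and Mlph are shown because both products bind Rab27 and both genes had every mutant library below WT, a description that for Mlph carries the limit of the filter. They run from 250 bases before to 50 bases after the transcription start in RefSeq on GRCm38.p6, chrX:133981763-133982062 on the minus strand for Sytl4 and chr1:90914850-90915149 on the plus strand for Mlph, 5′ to 3′ in the direction of transcription, with E-box letters (CANNTG) in capitals.
Sytl4: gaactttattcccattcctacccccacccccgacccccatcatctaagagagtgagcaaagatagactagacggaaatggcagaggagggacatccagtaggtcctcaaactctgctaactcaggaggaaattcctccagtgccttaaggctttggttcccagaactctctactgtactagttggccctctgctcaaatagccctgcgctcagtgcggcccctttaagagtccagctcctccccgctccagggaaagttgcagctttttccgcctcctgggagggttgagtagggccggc
Mlph: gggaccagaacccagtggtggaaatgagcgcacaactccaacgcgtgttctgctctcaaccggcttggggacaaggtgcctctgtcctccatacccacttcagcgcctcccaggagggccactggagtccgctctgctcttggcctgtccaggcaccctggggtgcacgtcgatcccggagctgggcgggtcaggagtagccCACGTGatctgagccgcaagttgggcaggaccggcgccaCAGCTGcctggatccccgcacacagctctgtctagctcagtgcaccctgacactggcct
The Sytl4 window held no match on either strand to the motifs searched, which were the E-box CANNTG with its form CACGTG, the cyclic AMP element TGACGTCA, the CCAAT box, the TATA box spelled TATAAA, and the Maf core spelled TGCTGA. The Mlph window held CACGTG and another CANNTG. Of the 46 genes 34 had RefSeq promoters, 38 in all, and CACGTG was found in 7 of these, 18.4% beside 7.15% of 32851 promoters of the same length. The genes were Cadps2, Napa, Nsf, Rab27a, Stxbp2, Syt14 and Unc13b, none of which was called. CANNTG, which takes in CACGTG, was in 73.7% beside 72.3%, TGACGTCA in 5.26% beside 1.79%, CCAAT in 31.6% beside 37.4%, TATAAA in 5.26% beside 13.6% and TGCTGA in 18.4% beside 19.5%. A match describes letters in the window and not a bound site.

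Of the 8 SNARE genes 0 were called in any comparison by limma, and an unadjusted p was under 0.05 for 1 in diabetic against WT, 2 in euglycemic against WT and 2 between the mutant groups, beside 11.9%, 13.9% and 20.6% of all genes. Vamp2, the granule VAMP of regulated secretion, had the highest mean of the 8 over the 11 libraries (59.2 FPKM), though in euglycemic cells Vamp8 had the higher mean (57.1 against 55.4). Vamp2 was at 64.4, 65.4 and 71.8 FPKM in WT, 62.4, 45.96, 65.9 and 53.9 in diabetic, and 70.8, 55.7, 51.9 and 43.3 in euglycemic libraries, and the groups overlapped. Snap25, its partner on the plasma membrane, differed from WT by -0.00 in diabetic (95% interval -0.56 to 0.55) and by 0.03 in euglycemic libraries (-0.53 to 0.59). Stx1a, the syntaxin of fast granule fusion, was at 2.95, 3.57 and 2.81 in WT, 2.20, 2.60, 1.68 and 2.25 in diabetic, and 2.54, 2.05, 3.92 and 1.66 in euglycemic libraries. All diabetic libraries were below WT for Stx1a, with a log2 difference of -0.37 that was not called (adjusted p = 0.551).

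Vamp3, cellubrevin, a VAMP of constitutive and endosomal traffic, was at 45.4, 29.6 and 36.8 in WT, 18.7, 19.6, 20.8 and 31.2 in diabetic, and 24.1, 23.0, 27.6 and 15.4 in euglycemic libraries. The euglycemic libraries were all below WT, and diabetic replicate 4 overlapped it. The log2 difference was -0.71 in diabetic (unadjusted p = 0.0125, adjusted p = 0.251) and -0.71 in euglycemic libraries (unadjusted p = 0.0122, adjusted p = 0.235), and neither was called. Vamp8, the endosomal VAMP that also serves newcomer granules, was at 54.5, 30.2 and 36.5 in WT, 25.7, 36.5, 36.0 and 46.4 in diabetic, and 54.1, 59.2, 54.3 and 61.0 in euglycemic libraries. Stx4a, the syntaxin that supports sustained secretion, was at 3.24, 3.09 and 4.13 in WT, 2.75, 2.50, 1.88 and 2.76 in diabetic, and 4.72, 3.29, 3.73 and 4.60 in euglycemic libraries. In both genes every diabetic library lay below every euglycemic library, by -0.67 for Vamp8 (adjusted p = 0.145) and -0.55 for Stx4a (adjusted p = 0.145). Stx3 and Snap23 had group means of 15.9 to 21.1 and 8.84 to 10.1 and overlapped between all groups.

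Of the 4 listed Munc18 and tomosyn genes, which bind syntaxins, Stxbp2 had the highest mean in each group. It was at 15.5, 11.8 and 13.8 in WT, 9.29, 10.4, 11.4 and 10.7 in diabetic, and 15.0, 13.0, 11.2 and 11.8 in euglycemic libraries. The diabetic libraries lay below WT by -0.35 (adjusted p = 0.457), with a narrow gap between 11.4 and 11.8. Stxbp3 had group means of 8.44 to 10.5, and the tomosyn gene Stxbp5, an inhibitor of SNARE assembly, of 0.938 to 1.68. The other tomosyn gene, Stxbp5l, was at 0.357 to 1.34 and below the filter.

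Of the calcium sensors and complexins, Syt13, an atypical synaptotagmin that does not bind calcium, had the highest level of the 46 genes in every library. It was at 325, 433 and 454 in WT, 491, 259, 356 and 272 in diabetic, and 449, 348, 225 and 167 in euglycemic libraries. The groups overlapped, and the log2 differences from WT of -0.26 in diabetic and -0.53 in euglycemic libraries were not called. Leaving out 1 library at a time moved them between -0.45 and -0.14 and between -0.76 and -0.29. Syt7, the high-affinity calcium sensor of the β-cell granule, had means of 10.2 ± 3.66, 12.6 ± 2.21 and 10.5 ± 2.64 in WT, diabetic and euglycemic cells (SD, n = 3, 4 and 4, here and in the means below). Syt9, a fast sensor, had means of 1.86 ± 0.715, 3.17 ± 1.15 and 2.03 ± 0.521, and Syt4 of 73.7 ± 11.6, 79.0 ± 9.52 and 74.1 ± 9.76. Syt11 had means of 3.96 ± 0.539, 3.73 ± 1.29 and 4.97 ± 2.97, Syt14 of 2.04 ± 0.956, 1.79 ± 0.340 and 1.73 ± 1.07 and the complexin gene Cplx1 of 0.552 ± 0.423, 0.839 ± 0.681 and 1.01 ± 1.01, and all 3 overlapped between the groups. Since the library kit keeps no strand, reads of a gene may include those of an opposite-strand gene that overlaps it. This touches 14.5% of the exon bases of Syt4, 9.0% of Rab3b, 5.5% of Doc2b, 5.2% of Stx4a and 5.1% of Syt7, and between 1.3% and 4.4% of Ptprn, Unc13a, Baiap3 and Rab3a. Rab27a shares 3.8% with a gene on its own strand.

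Syt5 and Cplx2 were singled out after their values were seen. Syt5, a calcium sensor of dense core granules, was at 39.0, 22.4 and 31.7 in WT, 46.3, 36.5, 66.0 and 51.4 in diabetic, and 60.03, 64.5, 49.9 and 38.8 in euglycemic libraries. The mutant libraries were the higher ones apart from diabetic replicate 2 and euglycemic replicate 4, which lay just below WT replicate 1. The log2 difference was 0.67 (adjusted p = 0.301) and 0.77 (adjusted p = 0.223) and neither was called. Cplx2, the complexin that clamps and aids SNARE fusion, was at 6.27, 13.1 and 12.5 in WT, 5.83, 6.85, 7.06 and 6.27 in diabetic, and 4.70, 6.50, 5.70 and 6.08 in euglycemic libraries. WT replicate 1 lay among the mutant libraries while WT replicates 2 and 3 lay above all of them. The log2 difference was -0.57 (adjusted p = 0.341) and -0.73 (adjusted p = 0.198), and without WT replicate 1 the latter was -1.04 and passed the test (adjusted p = 0.0151).

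Rab3a, the Rab of regulated secretion in neurons and β-cells, had the highest mean of the 6 listed Rab genes over the 11 libraries (30.3 FPKM) and in both mutant groups, while in WT Rab37 had the higher mean (33.2 against 30.0). Rab3a was at 35.1, 28.8 and 26.1 in WT, 29.0, 23.0, 32.8 and 21.4 in diabetic, and 48.6, 40.8, 24.0 and 23.7 in euglycemic libraries, with all groups overlapping. Rab27a, the Rab that recruits granuphilin, had means of 10.9 ± 4.60, 10.1 ± 0.770 and 8.70 ± 1.14 in WT, diabetic and euglycemic cells, and its log2 difference from WT was -0.02 (95% interval -0.57 to 0.54) and -0.22 (-0.77 to 0.34). WT replicate 1 was at 5.61, below all 8 mutant libraries at 7.28 to 11.2, while WT replicates 2 and 3 were at 13.6, above all of them. Thus the overlap of Rab27a between WT and mutant libraries, which Sytl4 did not have, rested on WT replicate 1. Rab3b and Rab3d had means of 18.8 to 25.6 and 8.61 to 10.2. Rab27b was below the filter, at 0.0348, 0 and 0 in WT, 0.460, 0.188, 0.219 and 0.430 in diabetic, and 0.235, 0.253, 0.0744 and 0 in euglycemic libraries. All diabetic libraries were above WT, with an exact permutation p of 0.0286 (two-sided), the smallest that 4 libraries against 3 can give and 0.343 after Benjamini-Hochberg adjustment over the 12 tests of the 6 genes below the filter.

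The other Rab effectors were not called in any comparison. Rph3al, encoding Noc2, a Rab3 and Rab27 effector, had means of 35.2 ± 8.34, 31.4 ± 6.74 and 24.4 ± 5.39, and Sytl1, encoding Slp1, of 9.72 ± 3.35, 9.32 ± 1.62 and 10.2 ± 2.41. Exph5, encoding Slac2-b, had means of 2.34 ± 1.21, 2.12 ± 0.849 and 1.27 ± 0.198. Sytl5, encoding Slp5, was at 2.21, 2.23 and 3.37 in WT, 4.32, 4.00, 5.16 and 5.18 in diabetic, and 1.88, 3.19, 2.63 and 0.457 in euglycemic libraries. All diabetic libraries were above the other 7, by 0.66 against WT (adjusted p = 0.418) and by 0.997 against euglycemic libraries (adjusted p = 0.131), neither called. Rims2, encoding the active zone scaffold RIM2, was at 2.09, 4.30 and 3.85 in WT, 4.05, 3.53, 3.98 and 3.24 in diabetic, and 2.65, 2.09, 2.07 and 0.193 in euglycemic libraries. The gap between diabetic and euglycemic libraries was 0.89 on the log2 scale (adjusted p = 0.162), and 0.525 without euglycemic replicate 4. That library was the lowest for both Sytl5 and Rims2. Myrip and Sytl2 were below the filter, at 0 to 0.826 and 0 to 0.633, as were Syt1 at 0 to 1.025 and Doc2b at 0 to 0.347. Syt1 was at 0.101 to 0.149 in WT and 0.271 to 1.025 in diabetic libraries, all above WT (exact permutation p = 0.0857, two-sided, or 0.343 adjusted over the same 12 tests), and overlapped WT in euglycemic libraries.

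Within the synaptotagmin-like family the share of Sytl4 was below WT in every mutant library. Sytl4 made up 83.8% ± 4.19 (SD, n = 3) of the summed FPKM of Sytl1, Sytl2, Sytl4 and Sytl5 in WT cells, whereas it made up 68.3% ± 4.06 in diabetic and 71.2% ± 7.45 in euglycemic cells (SD, n = 4 each). The lowest WT share was 79.2% and the highest mutant share 77.6%. Stx1a was 14.1% ± 3.47 (SD, n = 3) of Stx1a, Stx3 and Stx4a in WT and 9.65% ± 1.88 and 9.37% ± 2.92 (SD, n = 4 each) in diabetic and euglycemic libraries, where the lowest WT share was 11.5% and the highest mutant share 11.4%. Snap25 was 80.9%, 78.5% and 79.5% of Snap25 and Snap23, and its libraries overlapped, as did those of Vamp2, Rab3a, Syt7, Cplx1, Unc13a, Cadps and Ptprn within their families. For Rab27a the share was 96.9% ± 1.42 (SD, n = 4) in diabetic libraries, all below WT at 99.8% ± 0.356 (SD, n = 3), and the euglycemic libraries overlapped WT. These shares were not tested.

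**Figure D4:**
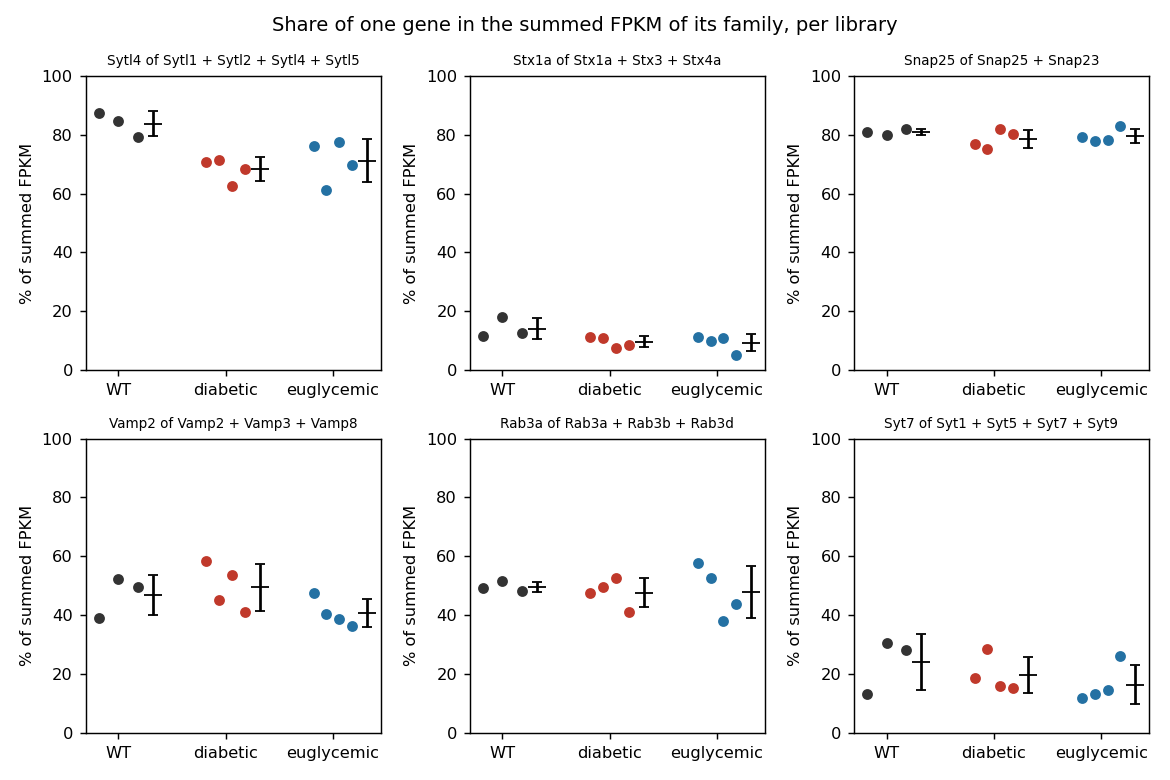
Share of a gene in the summed FPKM of its family, in percent from 0 to 100, in each WT, diabetic and euglycemic βRapKOGFP library (points) with the mean and SD (bar), for Sytl4, Stx1a, Snap25, Vamp2, Rab3a and Syt7. The Sytl4 share was 79.2% or more in WT and 77.6% or less in all 8 mutant libraries, and Snap25 stayed between 75.2% and 82.9% throughout.

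Diabetic and euglycemic βRapKOGFP cells carry the same deletion and differ in the insulin pellet. They also differed without overlap in the summed endothelial and stromal markers given above, and in Krt7 of the duct markers, while the other 3 duct markers overlapped. Of the 40 genes 0 were called between them by limma, with 0.00889% of all genes called, and 9 had an unadjusted p under 0.05, or 22.5% beside 20.6% of all genes. The groups did not overlap for 8 of the 40, or 20% beside 14.3% of all genes. For 34 of the 40 the 95% interval lay within 2-fold either way, 85% beside 72.2%. All 5 priming genes had a higher mean in diabetic libraries, by 0.40 to 0.77 on the log2 scale. None of them was called, 4 were among the 9, and the libraries overlapped for Unc13b and Cadps2. Cadps2, among the 4, reached an FPKM of 1 in diabetic replicates 1, 2 and 3 only. It could thus enter the test only because the diabetic group was high. Baiap3, a Munc13 relative of dense core granule traffic, was at 6.91, 18.7 and 16.0 in WT, 17.8, 14.9, 14.8 and 13.0 in diabetic, and 11.4, 7.66, 7.76 and 7.31 in euglycemic libraries. Its difference was 0.77 (unadjusted p = 0.0113, adjusted p = 0.156), with WT replicate 1 among the euglycemic libraries. Cadps, encoding the priming factor CAPS1, was at 6.10, 5.90 and 8.74 in WT, 8.50, 8.47, 8.36 and 6.71 in diabetic, and 5.35, 4.96, 4.80 and 5.70 in euglycemic libraries, a difference of 0.54 (unadjusted p = 0.00731, adjusted p = 0.142).

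Unc13a, Cadps2 and Ptprn2, also among the 9, were singled out after their values were seen. Unc13a, encoding Munc13-1, the central priming factor, had means of 1.71 ± 0.744, 3.17 ± 1.04 and 1.84 ± 0.269 in WT, diabetic and euglycemic cells and a diabetic minus euglycemic difference of 0.53 (adjusted p = 0.211). Unc13b, its relative, had means of 1.38 ± 0.680, 2.32 ± 0.788 and 1.47 ± 0.266. Cadps2, encoding CAPS2, had means of 0.788 ± 0.0727, 1.15 ± 0.344 and 0.553 ± 0.193, and Ptprn2, encoding the granule membrane protein phogrin, of 11.7 ± 1.98, 12.1 ± 1.06 and 8.72 ± 1.99. Ptprn, encoding IA-2 of the granule membrane, was at 30.1, 65.3 and 77.7 in WT, 87.7, 84.0, 92.2 and 57.5 in diabetic, and 43.0, 44.2, 40.7 and 87.3 in euglycemic libraries, and the groups overlapped.

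These differences went with transcript length. Across all genes, the deviation of a library from the gene median correlated with exon length with a Spearman rho of -0.11 to -0.40 in the euglycemic libraries, -0.35 in WT replicate 1, 0.28 and 0.30 in WT replicates 2 and 3, and 0.02 to 0.45 in the diabetic libraries. The diabetic minus euglycemic difference had a rho with exon length of 0.50 over the 40 genes and 0.47 over all genes with a length, a description over genes that share libraries and are not replicates. Its median was 0.33 in the 18 tested genes with at least 5000 exon bases and 0.01 in the 22 shorter genes. Cadps, Unc13a and Rims2 have 15054, 12623 and 10389 exon bases, while Vamp8 and Stx4a, the lower ones, have 2311 and 2364. Sytl5 goes against this trend, with 2301 exon bases and the largest difference among the 40. The part of transcript length in the differences of single genes was not tested beyond removing each library's trend with length, after which Baiap3, Sytl5 and Vamp8 were the genes with an unadjusted p under 0.05. Rab37 and Sytl4, with 5330 and 5125 exon bases, were called against WT with the trend removed as well, at -1.39 (adjusted p = 0.0347) and -1.06 (adjusted p = 0.0212) in diabetic libraries.

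**Figure D5:**
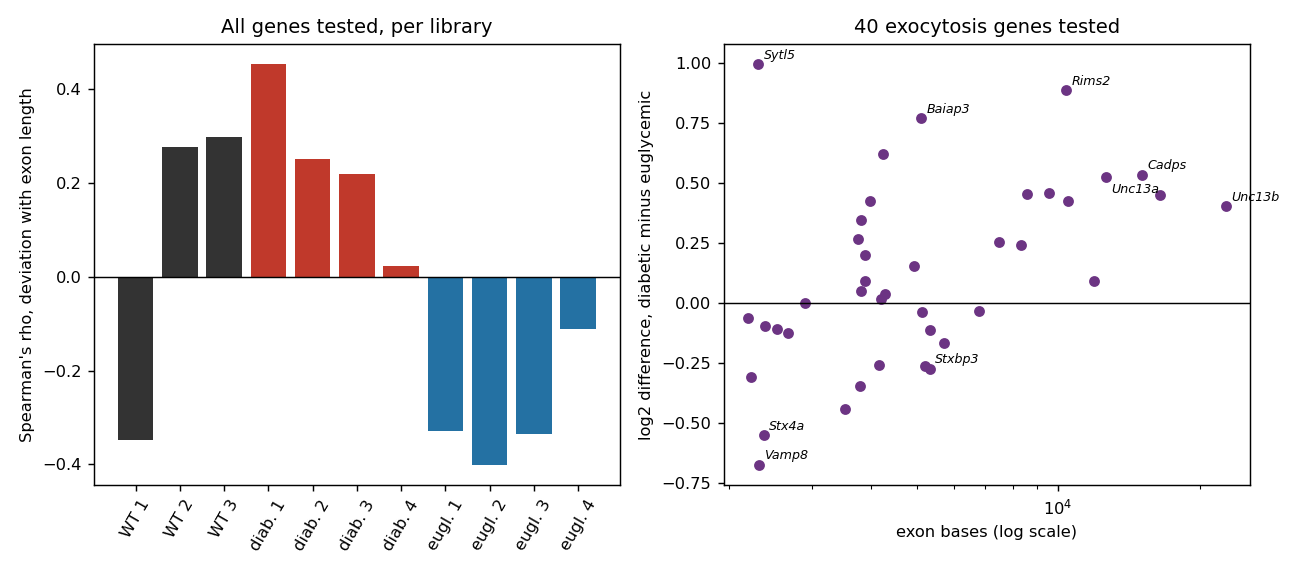
Left, Spearman's rho between exon length and the deviation of each library from the gene median over all genes tested, for 3 WT (black), 4 diabetic (red) and 4 euglycemic (blue) libraries. Right, log2 difference between diabetic and euglycemic libraries of the 40 genes against exon bases on a log scale, with a rho of 0.50 and genes with the larger differences named.

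The SNARE recycling genes overlapped between all groups. Napa, encoding α-SNAP, which with the ATPase NSF takes spent SNARE bundles apart, was at 162, 98.4 and 116 in WT, 88.1, 82.8, 120 and 113 in diabetic, and 139, 143, 124 and 105 in euglycemic libraries. Nsf had means of 10.2 ± 1.68, 10.7 ± 1.80 and 9.04 ± 2.47. The log2 difference from WT was between -0.29 and 0.06 for both genes in both mutant groups, with an adjusted p of 0.663 to 0.951.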

How the data were processed

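RNA-seq was measured in 11 libraries of GFP+ islet cells, 3 WT, 4 diabetic and 4 euglycemic, grouped by the labels. Reads were aligned to mm10 by the authors, who deposited 1 FPKM value for each gene in each library; the paper names Tophat and Cufflinks, whereas the submitters' processing notes name HISAT2 2.0.4, StringTie 1.3.0 and edgeR, and which of them made the values was not settled here. The mapped fragment totals were inferred from single-exon genes, where 92.7 to 97.1% of low values were whole fragments within 0.02. Intervals cover the spread between libraries. Of 34745 table entries 34267 matched a GENCODE vM21 symbol and 17 repeated symbols were left out. Overlaps with opposite-strand genes were read from the same annotation.

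The log2(FPKM + 1) values of all libraries were fitted together with limma 3.58.1 in R 4.3.3 (lmFit, eBayes with a trend), after a test on simulated data. Exact permutation tests, two-sided, shares and figures used Python 3.11.15, scipy 1.17.1 and matplotlib 3.10.9. The members, the gene and marker lists and the tests were chosen with earlier results of these data known. Every library value was given for genes called, for the highest gene of each role and for the 5 largest non-overlapping differences of each comparison. Replicate numbers were not treated as pairs, since same-numbered libraries did not deviate together. Alternatives were the filter, the pseudocount, TPM, the median of ratios, no trend, library weights, a replicate block, unadjusted p, no fold criterion, every entry kept, only the groups compared, and leaving out each library. The authors' alignments were not used here. Of the other exocytosis genes only those called were named. Values of some further genes are not reported here.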

Additional observations from a re-analysis of the deposited data

Results flagged for a closer look

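Sets of 4 libraries were checked, 116 in all, each a gene or a family share within a mutant group. In 7, all of them genes, the gap of an extreme library to the next exceeded Dixon's 95% critical value. The gap was taken as a share of the group's range. Chance gives about 1 such set in 20. Syt11 stood at 9.405 FPKM in euglycemic replicate 4 against at most 3.916 in the other 3 libraries, and Ptprn at 87.34 in the same library against at most 44.24. Baiap3 was at 11.37 in euglycemic replicate 1 against at most 7.764 in the others. In the diabetic libraries Cadps was lowest at 6.712 in replicate 4 and Snap23 lowest at 8.361 in replicate 2, against at least 8.355 and 10.39 in the others. Sytl2, close to 0 elsewhere, was at 0.6327 in diabetic replicate 1 and 0.6066 in euglycemic replicate 3. Diabetic replicate 1 also had the highest endothelial sum, 48.9, and euglycemic replicate 4 the highest acinar sum, 3330. The part of these markers in the values was not tested.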

How the results depend on the processing

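Precision was limited by 3 or 4 libraries a group and by 9497760 to 16653104 inferred fragments, at which low genes rest on few fragments. Differences of Rab37 and Sytl4 from WT stayed negative under all 27 alternatives, from -1.56 to -1.13 and -1.15 to -0.95 in diabetic libraries, and their calls there held under 14 and 15 of them. The covariate, length and paired left-out alternatives were chosen after seeing the data. Except where a reason lies in the alternative itself (fewer or more genes tested, fewer libraries), the cause of a change was not tested.

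Diabetic against WT, the 2 calls became 0 with no filter, TPM or the acinar covariate, 1 with a pseudocount of 0.1, 4 with library weights and 6 at unadjusted p, and 0 to 2 with a library left out. Euglycemic against WT, the 0 calls became 1 with an FPKM of at least 5 or the median of ratios, 10 with library weights, 6 at unadjusted p, 7 without WT replicate 1 and euglycemic replicate 4, and 0 to 4 with a library left out, the 4 without WT replicate 1. Diabetic against euglycemic, the 0 calls became 5 with weights, 4 at unadjusted p, 3 without those 2 libraries and 0 to 1 with a library left out, the 1 being Baiap3 without WT replicate 1. Both mutant groups against WT, the 2 calls became 0 with no filter, 4 with weights, 1 with the acinar covariate, 4 without the 2 libraries, 5 at unadjusted p and 0 to 2 with a library left out. The replicate block gave 1 call in diabetic against WT and 1 with both mutant groups, in each Rab37; same-numbered libraries had a mean correlation of -0.132, and 0 of the 11 libraries matched its own number best.

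The median difference of the genes ran from -0.0738 to 0.0994 in diabetic and -0.2327 to -0.0214 in euglycemic libraries against WT with a library left out, and from 0.02 to 0.15 between them. It was -0.18 in euglycemic libraries with weights and -0.18 without the 2 libraries, and 0.19 between the mutant groups in TPM. Calls in the second exocytosis list were 0 with a pseudocount of 0.1, TPM or the replicate block in both mutant groups, 2 in diabetic libraries with the median of ratios, and 0 to 2 and 0 to 4 with a library left out. Rptor in diabetic libraries was -0.485 (exact permutation p = 0.0286) with the median of ratios, and -0.614 to -0.355 and -0.787 to -0.527 in the mutant groups with a library left out, where 3 libraries against 3 or 4 against 2 cannot reach 0.05.

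Small differences changed sign. With weights and without the 2 libraries, Stxbp2 euglycemic against WT was 0.0383 and 0.0283 and Baiap3 diabetic against WT -0.13 and -0.19. Diabetic minus euglycemic, Rab37 was 0.000241 in TPM and 0.0543 with weights, Sytl4 0.0846 and 0.0122, and Mlph -0.0568 with the length trend removed. With a library left out, euglycemic against WT ran from -0.0582 to 0.278 for Rab3a, -0.47 to 0.20 for Ptprn and -0.11 to 0.25 for Napa, Baiap3 diabetic against WT from -0.19 to 0.47, and diabetic minus euglycemic from -0.33 to 0.10 for Rab37, -0.191 to 0.0861 for Sytl4 and -0.0457 to 0.146 for Mlph.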
